A study of Mus musculus with 19 samples.

Results

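Livers without Myd88 were set against livers with it, over both Ager genotypes at once, in mice whose liver had been partly removed 2 h earlier. The side without Myd88 held 8 arrays, 4 from Myd88-null mice (Myd88_null) and 4 from mice null for both genes (Ager_Myd88_null). The side with Myd88 held 11 arrays, 5 from wild-type mice (WT) and 6 from Ager-null mice (Ager_null). These are all 19 arrays of the study, and each was placed by its title and genotype label, with no measured value used. All mice were C57BL/6 males of 10 to 12 weeks, and 85% of the liver had been resected in every one. Each fold change below is the difference without minus with Myd88, estimated in limma with Ager genotype as a covariate, so that a gene was judged on how far it moved within Ager-intact and within Ager-null livers together. The labels call the alleles null without saying how they were made, and livers without resection were not analysed here.

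Myd88 is the adaptor that Toll-like receptors and the receptors of the interleukin-1 family use to recruit IRAK kinases and TRAF6, which in turn activate NF-kB and MAP kinases. NF-kB then induces chemokines, cytokines and its own inhibitors. In the resected liver, Kupffer cells that sense bacterial products and tissue damage release TNF and interleukin-6, and interleukin-6 acts through STAT3 on hepatocytes to induce acute phase proteins and to prepare them for division. Ager encodes RAGE, another receptor for molecules released by damaged cells, which also feeds NF-kB.

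The arrays carried a liver profile. The median level of 17 tested hepatocyte markers was 14.3 (log2), and their mean on an array differed from the average array by -0.12 to 0.09 without Myd88 and by -0.11 to 0.10 with it. The labels' extraction protocol mentions glomeruli, a kidney structure. Of 14 markers of kidney and glomerulus measured here only Podxl passed the filter on low values, at 4.35 without and 3.93 with Myd88. Correlations between arrays were 0.948 to 0.993, and the median correlation of Myd88_null 4 with the other arrays, 0.965, was the lowest, where every other array had at least 0.979. Each array's description includes a number after the letter S, of unstated meaning. Numbers 1 to 6 fall on 4 arrays without and 2 with Myd88, numbers 7 to 12 on 3 without and 2 with, and numbers 13 to 20 on 1 without and 7 with, among them all 6 Ager_null arrays. S range and Myd88 genotype are unevenly crossed. Values from a fit blocked by S range are therefore also given where they change the call of a called gene or list member. No S range holds both Ager_null and Ager_Myd88_null arrays, so blocked values rest more on Ager-intact livers than the pooled values do. Without the arrays of S 13 to 20 no Ager_null array is left, and the Myd88 term then compares Myd88_null with WT alone.

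Loss of Myd88 changed 32 of 8515 tested genes, which is 0.376% (limma, adjusted p under 0.05). There were 22 higher genes, 0.258% of those tested, and 10 lower ones, 0.117%. The lower genes were led by Myd88 and neighbours of it on chromosome 9, followed by the B cell chemokine gene Cxcl13 and the transcription factor gene Irf1. The higher genes included receptor and matrix genes such as Fgfr1 and Gpc1, the immunoglobulin A heavy chain gene Igha, galectin-1 and a group of zinc finger genes. Changes outside chromosome 9 were mostly small, and 18 of the 32 were under 1 on the log2 scale. For 8 genes, 0.094% of those tested, the arrays without Myd88 did not overlap those with it, and all 8 were among the 32. Before adjustment 1142 genes, 13.4% of those tested, had a p under 0.05. Over all tested genes the median change was 0.06 and 64.6% of genes were above 0, the base against which gene groups are read below. A fit blocked by S range, which rests more on Ager-intact livers, called 286 genes, of which 258 were higher and 28 lower. Of the 32 genes 28 were among them. Without Myd88_null 4 the count was 37, with 25 of the 32 among them. The split between directions depended on scaling, with 7 higher and 9 lower after quantile normalization of the deposited values and 6 higher and 14 lower after centring each array on its median.

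Myd88 itself was measured by 1 probe set. Its lowest, median and highest levels were 2.60, 3.66 and 3.86 (log2) on arrays without Myd88, against 5.24, 5.72 and 6.39 on arrays with it. Every array thus matched its Myd88 label, and the change was -2.27 ± 0.18 (log2, SE, limma adjusted p = 1.42e-07). Levels of about log2 4 and below lie near the background of these arrays, which limits how large such a change can be read. Ager did not pass the filter on low values and was not tested.

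The strongest changes apart from Myd88 itself were in genes on the same chromosome. Limd1, which encodes a LIM domain scaffold protein, read 4.71, 4.96 and 6.17 (lowest, median and highest) without Myd88 and 7.39, 7.67 and 8.16 with it. It fell by 2.46 ± 0.19 on the log2 scale, or 5.52-fold (limma adjusted p = 1.42e-07). Lars2, the mitochondrial leucyl-tRNA synthetase gene, read 3.01, 3.23 and 3.68 without Myd88 and 4.89, 5.31 and 5.77 with it. It fell by 2.10 ± 0.12 (adjusted p = 1.53e-09), with the arrays without Myd88 near background. The gene model 2010315B03Rik read 4.18, 4.71 and 5.33 without Myd88 and 6.62, 7.73 and 8.16 with it, and had the largest estimate of all called genes at -2.96 ± 0.18 (adjusted p = 3.28e-09). Itga9, the integrin alpha 9 gene, moved the other way, with 4.08, 4.53 and 4.94 without Myd88 and 2.83, 3.06 and 3.35 with it. It rose by 1.43 ± 0.11 (adjusted p = 1.42e-07), with the arrays with Myd88 near background. None of these genes had overlapping arrays. Sacm1l, a phosphoinositide phosphatase gene that lies between Limd1 and 2010315B03Rik, fell by 0.40 ± 0.08 (adjusted p = 0.0262), a smaller change with overlapping arrays. Limd1, Lars2 and Itga9 were each called from their brightest probe set. The other probe sets of these genes lay below the filter, at -0.27 for Limd1, at -0.36 and 0.31 for Lars2 and at 0.0025 and 0.30 for Itga9.

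**Figure D1:**
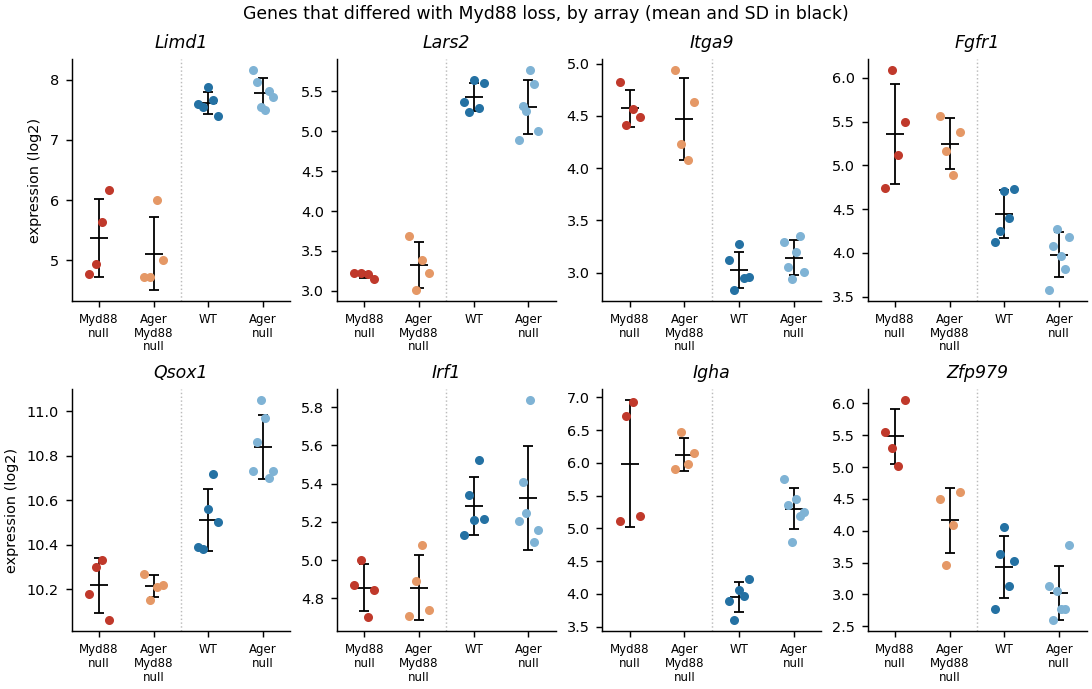
Expression (log2, vertical axis) of 8 called genes on every array, with Myd88_null and Ager_Myd88_null left of the dotted line and WT and Ager_null right of it. Points are arrays and black bars give mean and SD. For Limd1, Lars2, Itga9, Fgfr1, Qsox1 and Irf1 the arrays on either side of the line do not overlap, while Igha and Zfp979 overlap.

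In gene order, Itga9 lies 20 annotated genes before Myd88, and Lars2, Limd1, Sacm1l and 2010315B03Rik lie 116, 119, 121 and 140 genes after it. Within 150 annotated genes on each side, 61 genes were tested and 6 called, Myd88 included, which is 9.84% against 26 of 8454 other tested genes, 0.308%. Between Itga9 and Lars2, 30 tested genes other than Myd88 lie and 0 of them were called by limma. The 55 neighbours that were not called had a median change of 0.06, with a range of -0.28 for Slc25a38 to 0.45 for Fyco1, close to the median of other genes. The genes next to Myd88 were among these, with Oxsr1 at 0.28 ± 0.14 on one side and Acaa1a at 0.17 ± 0.11 on the other. Parp3, also on chromosome 9 but outside this neighbourhood, rose by 0.65 ± 0.13 (adjusted p = 0.0262). All livers without Myd88 carry the null allele, so effects of the lost protein and of the chromosome segment that came with the allele cannot be told apart for these genes.

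**Figure D2:**
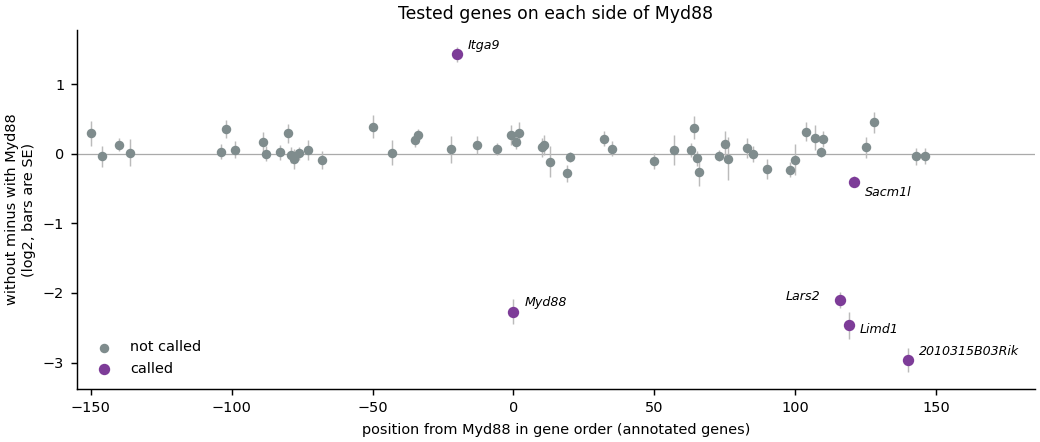
Change without minus with Myd88 (log2, vertical axis, bars are SE) of the 61 tested genes within 150 annotated genes of Myd88, by their place in gene order (horizontal axis). Called genes are purple, and the change of Lars2, Limd1 and 2010315B03Rik stands between values near 0 on either side.

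Outside this neighbourhood 5 genes were lower without Myd88. Cxcl13, a chemokine that attracts B cells, had the largest of these changes. It read 2.74, 3.5 and 4.63 without Myd88 and 4.20, 5.42 and 7.30 with it, so that the ranges overlapped between 4.20 and 4.63. It fell by 1.76 ± 0.38, or 3.4-fold (limma adjusted p = 0.0488). A second Cxcl13 probe set gave -0.83 ± 0.23. Qsox1, a sulfhydryl oxidase gene of the secretory pathway, read 10.06, 10.22 and 10.33 without Myd88 and 10.38, 10.72 and 11.05 with it. It fell by 0.47 ± 0.08 (adjusted p = 0.0113), a small change with no overlap of arrays. Irf1, a transcription factor gene induced by NF-kB and by interferon, read 4.70, 4.86 and 5.08 without Myd88 and 5.09, 5.21 and 5.84 with it. It fell by 0.45 ± 0.09, or 1.37-fold (adjusted p = 0.0417), again with no overlap. The carboxylesterase gene Ces4a (-0.61 ± 0.12, adjusted p = 0.0317) and Fank1 (-0.48 ± 0.09, adjusted p = 0.0217) also fell, both at levels near log2 4. With values under log2 4 set to 4, Cxcl13, Ces4a and Fank1 lost the call. Cxcl13 passed in 5 of 13 alternative settings and in 5 of 19 fits without 1 array, and Irf1 in 10 of 13 and 6 of 19.

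The 21 higher genes outside the neighbourhood spanned several functions. Gnai1, an inhibitory G protein subunit gene, showed the largest rise. It read 6.22, 7.09 and 7.72 without Myd88 and 3.62, 5.77 and 7.03 with it. The change was 1.71 ± 0.34 (limma adjusted p = 0.0272) with overlapping arrays. Gnai1 was at 2.48 ± 0.40 without Ager and at 0.88 ± 0.42 with Ager intact, and averaged 4.51 in Ager_null against 6.39 in WT. It passed in 9 of 14 alternative settings. Fgfr1, a fibroblast growth factor receptor gene, read 4.74, 5.27 and 6.09 without Myd88 and 3.57, 4.18 and 4.73 with it. It rose by 1.10 ± 0.16, or 2.14-fold (adjusted p = 0.00142), without overlap, and a second probe set gave 0.52 ± 0.13. Gpc1, a heparan sulfate proteoglycan gene of the cell surface, rose by 0.81 ± 0.16 (adjusted p = 0.0262). Lgals1, which encodes galectin-1, read 10.27, 10.98 and 11.49 without Myd88 and 8.73, 9.83 and 11.21 with it. Its change was 1.0 ± 0.21 (adjusted p = 0.0397), and 0.76 ± 0.23 (adjusted p = 0.0814) in the fit blocked by S range. Within S 1 to 6 Lgals1 ran the other way, at -0.22, as a plain difference of means without the Ager covariate. Noct, the nocturnin gene of the circadian output, rose by 0.91 ± 0.18 (adjusted p = 0.0262), with 10.93, 11.41 and 11.79 without Myd88 and 9.84, 10.47 and 11.28 with it. Plekhb1 rose by 1.2 ± 0.24 (adjusted p = 0.0337) and Proca1 by 0.79 ± 0.15 (adjusted p = 0.0262).

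Zfp979, Zfp991 and Znf41-ps rose together and lie near each other on chromosome 4, with Zfp991 39 and Zfp979 54 annotated genes after Znf41-ps. Zfp979 read 3.47, 4.81 and 6.05 without Myd88 and 2.60, 3.13 and 4.06 with it, a change of 1.58 ± 0.22 (limma adjusted p = 0.00122). Its arrays with Myd88 were near background. Zfp991 changed by 1.48 ± 0.28 (adjusted p = 0.0251) and Znf41-ps by 1.11 ± 0.20 (adjusted p = 0.0237). Zinc finger genes of such clusters can be near-identical copies that share probe sequence, so how the signal divides among these genes is uncertain.

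Igha rose by 1.41 ± 0.25 (limma adjusted p = 0.0205), and its level also differed with Ager. It read 5.12, 5.18, 6.71 and 6.94 in Myd88_null, 5.90, 5.98, 6.15 and 6.46 in Ager_Myd88_null, 3.6, 3.89, 3.97, 4.07 and 4.22 in WT, and 4.79, 5.30 and 5.75 as lowest, median and highest in Ager_null. All WT arrays were thus lower than all others, and 2 Myd88_null arrays lay inside the range of Ager_null. Igha lost the call without the Ager covariate and with replicate number as a block. Its change was 2.04 ± 0.31 with Ager intact and 0.82 ± 0.30 without Ager. Of 15 B and plasma cell markers on the array 4 were tested. Igha was called, Jchain, which joins immunoglobulin A subunits, was at 0.54 ± 0.15 (adjusted p = 0.107), Sdc1 was at 0.10 and the immunoglobulin M gene Ighm at -0.23. The mean level of the 4 markers against the average array was -0.283 to 0.783 without and -0.488 to 0.105 with Myd88. In bulk liver, fewer or more cells of a type and a changed amount of RNA per cell cannot be told apart.

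The other 10 higher genes had changes of 0.42 to 0.67 and adjusted p-values of 0.0262 to 0.0488 in limma. They were Tmem51, Parp3, the lysosomal gene Cln3, the Arf exchange factor gene Cyth3, Supt3, Mgat4b, the lipid raft gene Flot2, the Hippo pathway coactivator gene Wwtr1, the guanylate cyclase subunit gene Gucy1a1 and Rhbdd3, and except for Gucy1a1 each had the same sign within every S range. Within S 13 to 20 Gucy1a1 was at -0.25, a plain difference of means without the Ager covariate. There it read 5.46 on Myd88_null 4 and 5.44 on WT 5, while Ager_null averaged 5.75. In the fit blocked by S range it had 0.32 ± 0.10 (adjusted p = 0.0904), Wwtr1 0.40 ± 0.11 (adjusted p = 0.0559) and Ces4a -0.48 ± 0.14 (adjusted p = 0.0660).

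All 32 genes had the same sign in Myd88_null against WT as in Ager_Myd88_null against Ager_null. A gene reaches the pooled threshold more easily when both effects run the same way, so this count is a description. Of the 32 estimates, 12 were larger with Ager intact and 20 without Ager, with a median size of 0.70 and 0.81. For 0 of the 32 did the difference between the backgrounds pass in limma, against 2.41% of all tested genes. A gene reaches the pooled threshold less easily when the 2 effects differ, so this count is a description as well. Among the 32 the smallest limma adjusted p of the difference was 0.0691, for Noct. Noct was at 1.36 ± 0.20 without Ager and at 0.43 ± 0.21 with Ager intact, and Lgals1 at 1.52 ± 0.24 and 0.44 ± 0.25 in the same order (adjusted p of the difference = 0.0733). Cxcl13 ran the other way, at -1.23 ± 0.51 without Ager and -2.34 ± 0.53 with Ager intact. Lars2 was at -1.98 without Ager and -2.23 with Ager intact, and 2010315B03Rik at -2.91 and -3.02 in the same order.

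**Figure D3:**
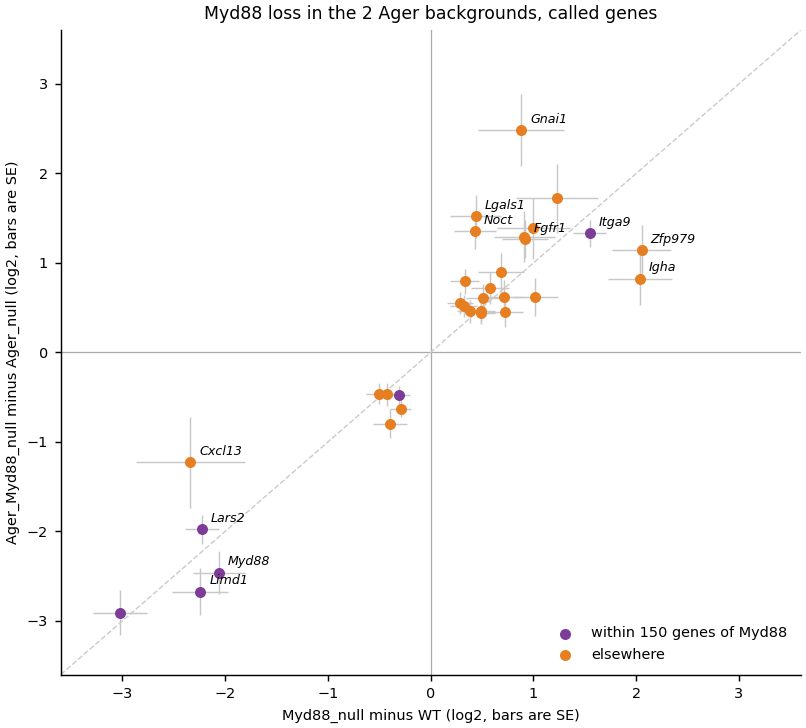
Effect of Myd88 loss on the 32 called genes without Ager (Ager_Myd88_null minus Ager_null, vertical axis, log2) against the effect with Ager intact (Myd88_null minus WT, horizontal axis, log2), with bars of 1 SE. All points lie where both effects have the same sign, and genes within 150 annotated genes of Myd88 are purple.

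Taken alone, Ager_Myd88_null against Ager_null gave 208 called genes (2.44%), 136 higher (1.6%) and 72 lower (0.846%), with 22.7% of genes at an unadjusted p under 0.05 in limma. Myd88_null against WT gave 34 (0.399%), 27 higher (0.317%) and 7 lower (0.0822%), with 19.6% at that p. The difference between them passed for 205 of 8515 tested genes (2.41%, limma adjusted p under 0.05), being above 0 for 49 (0.575%) and below 0 for 156 (1.83%), with 27.2% at an unadjusted p under 0.05. For 202 of the 205 the Myd88 effect had opposite signs in the 2 backgrounds. Of the 205, 0 were called in the pooled comparison, where 0.376% of all tested genes were called. The 6 with the smallest p were the RNA-binding protein gene Atxn2, the STAT3-induced kinase gene Pim1, Zfyve1, Ccdc122, the methyltransferase gene Setd4 and the ribosome maturation gene Nip7. Pim1 averaged 5.49 ± 0.38 (log2, SD, n = 4) in Ager_Myd88_null against 7.57 ± 0.73 (n = 6) in Ager_null, while it averaged 6.70 ± 0.42 (n = 4) in Myd88_null against 5.95 ± 0.52 (n = 5) in WT. Its pooled value of -0.72 (adjusted p = 0.457) thus averages effects of opposite sign. The count of 205 fell to 0 in the fit blocked by S range, where 1128 genes had an unadjusted p under 0.05. No S range holds both Ager_Myd88_null and Ager_null arrays, so within-range values cannot be given for that contrast. It ran from 0 without Myd88_null 3 to 1739 without Myd88_null 1, was 0 without Myd88_null 4 as well, and moved by more than 1.5 times for 14 of 19 arrays left out, all but WT 4, Ager_null 2, 4 and 6 and Ager_Myd88_null 1.

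Many chemokine and cytokine genes are induced by NF-kB downstream of Myd88. Of 40 on the list 15 were tested and 1 was called, Cxcl13, where 0.376% of all tested genes were called, and 5 had an unadjusted p under 0.05, 4 of them below 0. The median of the 15 was -0.06 and 10 were below 0. The median was 0.000943 without Myd88_null 4 and -0.30 when blocked by S range. It was -0.36 with Ager intact and 0.11 without Ager, so the pooled median averages opposite signs. Cxcl1, a neutrophil chemokine, varied widely between arrays. It read 5.65, 8.58 and 9.81 without Myd88 and 7.43, 10.86 and 12.64 with it, a change of -2.47 ± 0.59 that did not pass (limma adjusted p = 0.0699). Its difference of means, without the Ager covariate, was -1.33 within S 1 to 6, -5.02 within S 7 to 12 and -1.45 within S 13 to 20. Cxcl10, an interferon-induced T cell chemokine, read 4.07, 4.46 and 5.16 without Myd88 and 4.14, 5.54 and 7.30 with it (-1.14 ± 0.27, adjusted p = 0.0692). The monocyte chemokine Ccl2 read 3.34, 3.94 and 4.15 without Myd88 and 3.98, 4.60 and 5.76 with it (-0.88 ± 0.20, adjusted p = 0.0608). For each of these genes the highest arrays were those with Myd88, and the ranges overlapped. The neutrophil chemokine Cxcl2 stood at -0.62 ± 0.34 (adjusted p = 0.450). The thymic chemokine gene Ccl25 had the lowest p of the members above 0, at 0.33 ± 0.12 (adjusted p = 0.211).

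**Figure D4:**
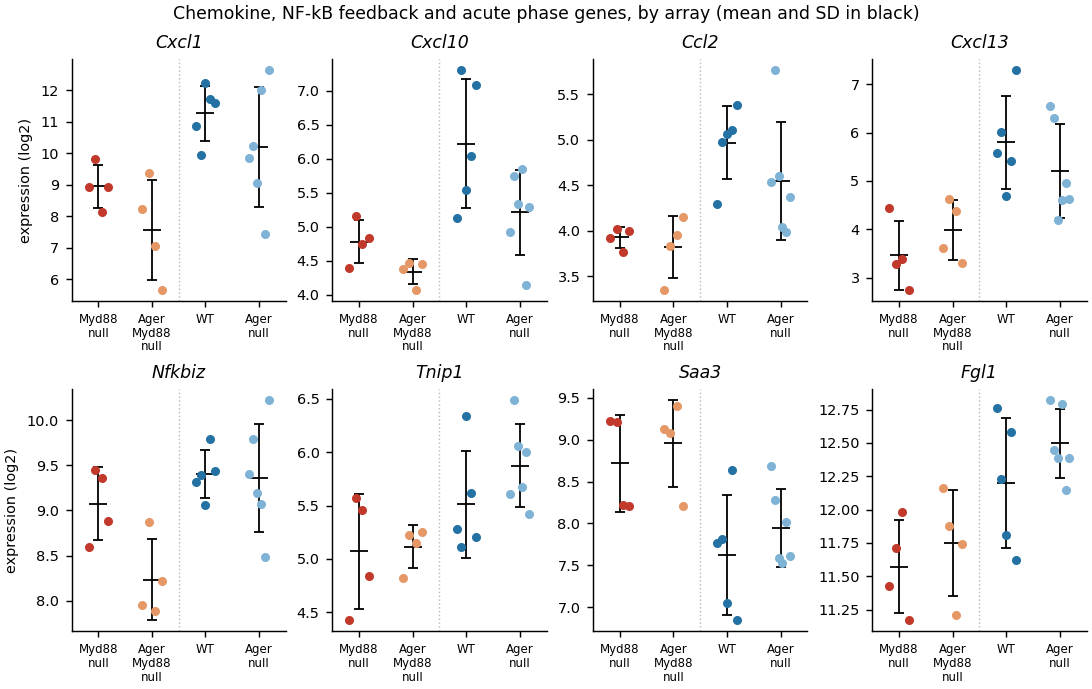
Expression (log2, vertical axis) of chemokine, NF-kB feedback and acute phase genes on every array, with Myd88_null and Ager_Myd88_null left of the dotted line and WT and Ager_null right of it. Points are arrays and black bars give mean and SD. Cxcl13 was called, and the other 7 genes did not pass, with Saa3 the only one of them higher on average without Myd88.

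The 250 bases before the first annotated start of Irf1 and before the starts of Cxcl10 and Cxcl1 are shown because these genes carry matches to the sites through which NF-kB and STAT factors act. Capitals mark matches to the NF-kB consensus and, in Irf1, to the STAT site GAS, which is TTC, any 3 bases and GAA, searched on both strands, with overlapping matches of 1 motif joined. The sequences are from RefSeq on GRCm38.p6, given 5′ to 3′ on the strand of the gene, at chr11:53769764-53770013 (plus strand), chr5:92348890-92349139 (minus strand) and chr5:90890995-90891244 (plus strand).
Irf1: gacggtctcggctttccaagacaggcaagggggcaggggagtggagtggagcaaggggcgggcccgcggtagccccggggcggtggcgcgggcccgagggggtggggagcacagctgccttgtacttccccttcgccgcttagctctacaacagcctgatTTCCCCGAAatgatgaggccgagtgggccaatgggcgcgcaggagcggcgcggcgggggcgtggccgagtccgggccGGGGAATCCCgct
Cxcl10: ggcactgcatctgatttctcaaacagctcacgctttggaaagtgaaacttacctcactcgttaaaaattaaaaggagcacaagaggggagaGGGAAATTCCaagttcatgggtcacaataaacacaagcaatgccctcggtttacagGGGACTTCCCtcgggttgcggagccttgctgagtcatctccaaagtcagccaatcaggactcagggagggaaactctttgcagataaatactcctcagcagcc
Cxcl1: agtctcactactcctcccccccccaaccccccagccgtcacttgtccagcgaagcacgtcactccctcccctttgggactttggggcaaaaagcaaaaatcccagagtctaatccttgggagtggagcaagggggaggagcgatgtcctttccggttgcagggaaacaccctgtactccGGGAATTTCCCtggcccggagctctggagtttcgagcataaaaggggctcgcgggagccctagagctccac
Irf1 holds the NF-kB match GGGGAATCCC from 13 to 4 bases before its start and the GAS match TTCCCCGAA from 90 to 82 bases before it. Cxcl10 holds GGGAAATTCC, starting 159 bases before the start, and GGGACTTCCC, starting 103 bases before it, and Cxcl1 holds GGGAATTTCCC at 71 to 61 bases. The NF-kB consensus was found in 3.9% of 32851 such windows and for 5.03% of the 6993 tested genes with a window. Among the called genes 24 had a window, and 1 of them, Irf1, held the consensus. GAS was found for 6.79% of tested genes and for 3 of the 24. The window of Cxcl13 held neither. Of the chemokine list 4 of 13 genes with a window held the consensus, Cxcl1, Cxcl10, Cxcl2 and Ccl9. A match is a run of letters in this window and not a site shown to be bound in these livers.

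NF-kB subunits and feedback genes mostly stood lower without Myd88 but none was called in limma. Of 15 tested, 13 were below 0, the median was -0.13, and 5 had an unadjusted p under 0.05, all 5 of them lower. Nfkbiz, which encodes the nuclear inhibitor family member IkB-zeta, read 7.89, 8.73 and 9.45 without Myd88 and 8.48, 9.40 and 10.22 with it (-0.74 ± 0.22, adjusted p = 0.124). Tnip1, an A20-binding inhibitor of the pathway, was at -0.61 ± 0.19 (adjusted p = 0.148), the adhesion molecule gene Icam1 at -0.57 ± 0.18 (adjusted p = 0.154) and Nfkbia, the gene of the inhibitor IkB-alpha, at -0.29 ± 0.10 (adjusted p = 0.197). All 4 genes had the same sign in both backgrounds, and the groups overlapped for each. They were named for the smallest pooled p in the list, which favours the same sign, so this is a description. The subunit gene Rela was at 0.14 ± 0.11, on the other side of 0. In the receptor list, 19 Toll-like and interleukin-1 receptor signalling genes besides Myd88 were tested and 0 called. Their median was 0.01, being 0.11 with Ager intact and -0.05 without Ager, and 3 had an unadjusted p under 0.05. The receptor gene Tlr13 was at -0.33 ± 0.10 (adjusted p = 0.161), the ligase gene Traf6 at 0.44 ± 0.14 (adjusted p = 0.166) and the inhibitor Tollip at 0.22 ± 0.08 (adjusted p = 0.212). In the fit blocked by S range Tlr13 was called, at -0.46 ± 0.11 (adjusted p = 0.0373).

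Acute phase plasma protein genes, which hepatocytes express at high levels, shifted little in the pooled fit. Of 30 tested, 0 were called by limma, 24 were below 0 and the median was -0.09. The median was -0.01 with Ager intact and -0.19 without Ager. At an unadjusted p under 0.05 there were 8, 7 of them lower. Saa3, a serum amyloid A gene also expressed in macrophages, was the 1 above 0. It read 8.21, 9.10 and 9.41 without Myd88 and 6.84, 7.76 and 8.68 with it, a change of 1.05 ± 0.24 (adjusted p = 0.0619). Fgl1, a fibrinogen-like factor secreted by hepatocytes, read 11.17, 11.73 and 12.16 without Myd88 and 11.62, 12.39 and 12.82 with it, a change of -0.69 ± 0.16 (adjusted p = 0.0692). In the fit blocked by S range Fgl1 was called, at -0.85 ± 0.18 (adjusted p = 0.0192), as were the pentraxin gene Apcs and the protease inhibitor gene Serpina10, all 3 lower. Serpina10 (-0.23 ± 0.09) and the C-reactive protein gene Crp (-0.15 ± 0.06) were small changes at high levels. Among 20 tested genes of interleukin-6 receptor, STAT3 and SOCS signalling 0 were called and the median was -0.06, or 0.21 without the arrays of S 13 to 20. This pooled median averages opposite signs, 0.20 with Ager intact and -0.26 without Ager. Socs2, a feedback inhibitor of growth hormone signalling, was at -1.06 ± 0.34 (adjusted p = 0.164), the receptor gene Lifr at -0.37 ± 0.13 (adjusted p = 0.205), Stat5b at 0.30 ± 0.10 (adjusted p = 0.209) and Il6ra at 0.76 ± 0.28 (adjusted p = 0.227). Il6ra was at 0.03 without Ager and at 1.55 with Ager intact, and was called higher in the fit blocked by S range.

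Of 30 tested interferon-stimulated genes 1 was called, Irf1, which fell, while 24 of the 30 were above 0 and the median was 0.17. Irf7, the factor that amplifies interferon production, was at 0.76 ± 0.20 (limma adjusted p = 0.0951), Irf9 at 0.44 ± 0.19 and Ifit1 at 0.73 ± 0.34, both with adjusted p over 0.3. The median was 0.02 in the fit blocked by S range and 0.29 without Myd88_null 4. Immediate early genes had a median of 0.16, with 22 of 31 above 0 and 0 called, and the median was 0.40 without the arrays of S 13 to 20. The growth-induced factor gene Egr1 was at 0.60 ± 0.24 and Ier2 at 0.55 ± 0.22, while Ier3, an NF-kB target, was at -0.82 ± 0.29 (adjusted p = 0.205). NRF2 antioxidant genes had a median of 0.11, with 21 of 28 above 0 and 0 called, among them Cbr3 at 0.73 ± 0.21 (adjusted p = 0.116).

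Cholesterol synthesis and uptake genes all had pooled estimates below 0, in 21 of 21 tested, and 0 were called in limma. Their median was -0.32, with a range of -0.67 for Sqle to -0.02 for Insig1. The median was -0.47 with Ager intact and -0.21 without Ager. Not every member was below 0 in each background, with Srebf2 at 0.23 with Ager intact and Mvd at 0.30 without Ager. The mean level of the list against the average array overlapped, at -0.706 to 0.335 without and -0.825 to 0.523 with Myd88. The squalene epoxidase gene Sqle averaged 9.30 without and 9.97 with Myd88 (-0.67 ± 0.26, adjusted p = 0.255). Fdps was at -0.51 ± 0.21 (adjusted p = 0.278) and Lss at -0.60 ± 0.25 (adjusted p = 0.297), and 6 of the 21 had an unadjusted p under 0.05. The median kept its sign after quantile normalization (-0.34) and after centring (-0.41). Unfolded protein and integrated stress response genes stood below 0 in 27 of 32, with a median of -0.13 and 0 called. The chaperone gene Hspa5 was at -0.22 ± 0.07 (adjusted p = 0.185), and without the arrays of S 13 to 20 the median of the list was -0.0047. Heat shock and chaperone genes were below 0 in 17 of 23, with a median of -0.11, 0 called and 0 at an unadjusted p under 0.05. Their median was 0.06 with Ager intact and -0.105 without Ager. Of 24 glucocorticoid-responsive genes 0 were called and the median was -0.08, being 0.02 with Ager intact and -0.19 without Ager. Ddit4, an inhibitor of mTORC1, read 7.73, 9.42 and 10.50 without Myd88 and 8.52, 11.50 and 12.26 with it (-1.59 ± 0.40, adjusted p = 0.0852), and was called in the fit blocked by S range (-1.73 ± 0.44, adjusted p = 0.0403).

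The circadian list had 1 of 18 genes called, Noct, and the growth factor, protease and repair list 1 of 17, Lgals1, where 0.376% of all tested genes were called. The median of the growth factor list was 0.06, and 0.24 without the arrays of S 13 to 20. It was 0.18 with Ager intact and -0.08 without Ager. Lists of gluconeogenesis and glycogen, fatty acid and triglyceride synthesis, PPAR-alpha and lipid oxidation, bile acid, cytochrome P450, MHC class I, cell cycle and BMP-SMAD genes had 0 called, with medians of -0.03 to 0.11. Some of these medians average opposite signs. With Ager intact they were 0.25 for gluconeogenesis and glycogen, 0.21 for fatty acid and 0.17 for PPAR-alpha genes. Without Ager the same lists were at -0.145, -0.12 and -0.18 in that order. Named members with the lowest p in these lists were the glycogen branching enzyme gene Gbe1 (0.41 ± 0.11, limma adjusted p = 0.0893, and 0.52 ± 0.12 with 0.0288 when blocked by S range), the p53 target Ccng1 (0.36 ± 0.10, adjusted p = 0.0948), the lipid droplet gene Fitm1 (1.11 ± 0.35, adjusted p = 0.154) and the transporter Slco1a1 (-0.28 ± 0.09, adjusted p = 0.162). Blocking by S range also called the clock gene Per1 (0.49 ± 0.13, adjusted p = 0.0402), the fatty acid oxidation gene Hadha (0.37 ± 0.08, adjusted p = 0.0238) and the cell cycle kinase gene Cdk6 (0.87 ± 0.22, adjusted p = 0.0378) as higher, and the p53 target Sesn1 (-0.45 ± 0.10, adjusted p = 0.0234) as lower. In the pooled fit none of Per1, Cdk6 and Sesn1 was called, at 0.24, 0.24 and -0.23. With Ager intact they were at 0.58, 1.10 and -0.49 in that order, and without Ager at -0.08, -0.55 and 0.0025. Over the 22 pathway lists 4 of 493 tested genes were called, Cxcl13, Irf1, Lgals1 and Noct, against 32 of 8515 genes (0.376%) in all.

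**Figure D5:**
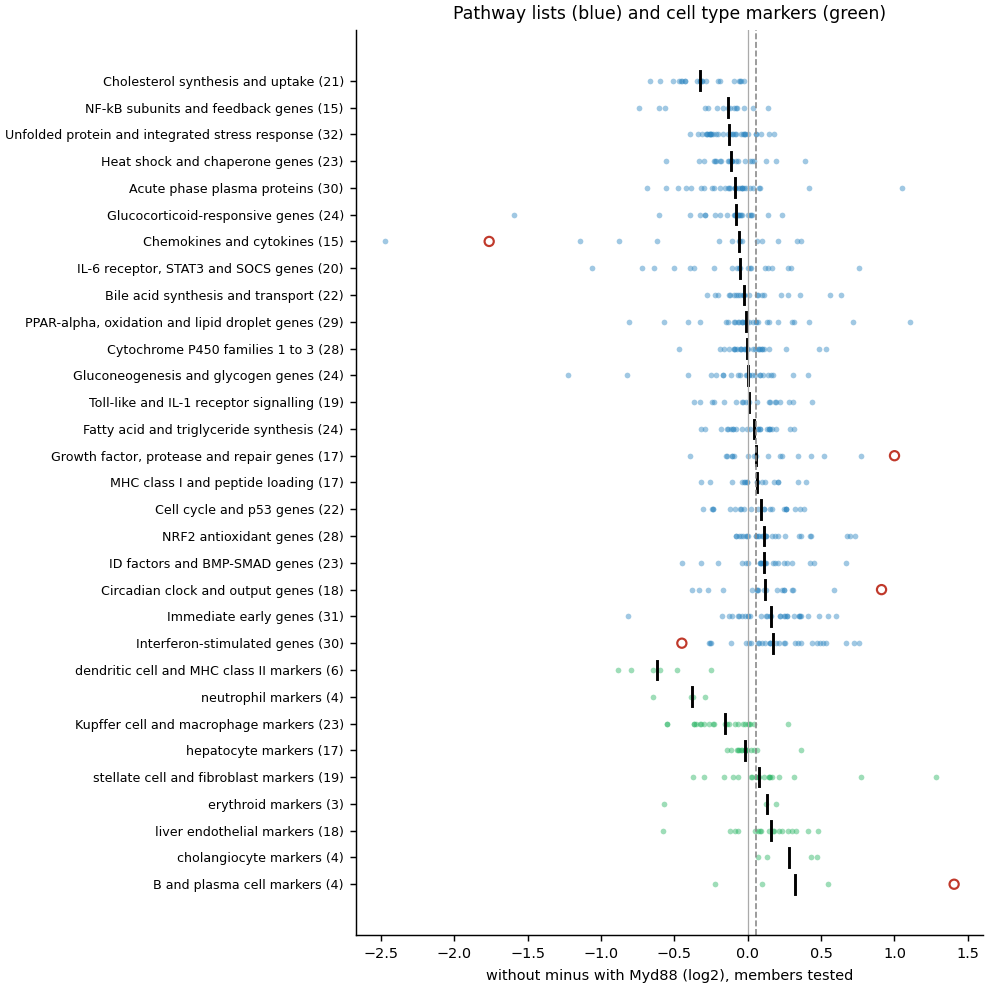
Change without minus with Myd88 (log2, horizontal axis) of every tested member of the pathway lists (blue) and cell type marker lists with at least 3 tested members (green), with the number tested in parentheses. Black bars are list medians, open red circles are called members, and the dashed line is the median of all tested genes, 0.06. The cholesterol list lies wholly below 0, while most lists spread around the dashed line.

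Among markers of other liver cell types, Igha was the 1 called gene. Kupffer cell and macrophage markers had a median change of -0.15 over 23 tested, with 0 called in limma, 0.04 without Myd88_null 4 and -0.48 in the fit blocked by S range. The median was 0.15 without Ager and -0.58 with Ager intact, where the macrophage surface receptor gene Adgre1 was at -1.04 and the lysozyme gene Lyz2 at -1.27, against -0.11 and 0.56 without Ager. Their mean level against the average array was -1.58 to 0.43 without and -0.45 to 0.54 with Myd88, with Myd88_null 4 at the lowest value. Dendritic cell and MHC class II markers stood below 0 in 6 of 6, with a median of -0.62, and -0.37 without Myd88_null 4. H2-Eb1 was at -0.89 ± 0.30 (adjusted p = 0.188), and the langerin gene Cd207 at -0.80 ± 0.24 (adjusted p = 0.143). Their median was -0.06 without Ager and -1.18 with Ager intact, and H2-Eb1, H2-Aa and Cd207 were called lower in the fit blocked by S range. Of 4 tested neutrophil markers, Fpr2, a receptor for formyl peptides, was at -0.65 ± 0.16 (adjusted p = 0.0724) and S100a8 at -0.29 ± 0.38. In the fit blocked by S range Fpr2 was called, at -0.74 ± 0.19 (adjusted p = 0.0399). Among 19 stellate cell and fibroblast markers the median was 0.07, or -0.01 after centring, and 0 were called, with the tropomyosin gene Tpm2 at 1.29 ± 0.31 (adjusted p = 0.0722) and the matrix gene Postn at 0.77 ± 0.19 (adjusted p = 0.0735, and 0.0238 in the fit blocked by S range). Liver endothelial markers had a median of 0.16, with 0 called. Blocking by S range called the von Willebrand factor gene Vwf, at 0.58 ± 0.15 (adjusted p = 0.0394), and the lymphatic growth factor receptor gene Flt4, at 0.72 ± 0.16 (adjusted p = 0.0256), both higher. Cholangiocyte markers had a median of 0.28 with 0 called, and 0.51 in the blocked fit. Of 18 T and NK cell markers on the array 0 passed the filter on low values. The part of these cell types in the chemokine and Irf1 values was not tested.

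Calls differed in how often they held under other choices. Limd1, Lars2, Itga9, Myd88 and 2010315B03Rik were called in every alternative setting in which they were tested and without any of the 19 arrays in turn. Fgfr1, Qsox1, Zfp979 and Igha were also called without any 1 array. Sacm1l, the other called neighbour, lost the call with the replicate block and without the arrays of S 13 to 20, and held in 15 of 19 fits without 1 array. Leaving out the arrays of S 13 to 20 removes 1 array without and 7 with Myd88, among them every Ager_null array. The Myd88 term is then Myd88_null against WT alone and is not pooled over both backgrounds. That fit called 7 genes, 6 of them among the 32, which were the 5 above and Igha. Wwtr1 and Gucy1a1 held in 4 of 19 fits without 1 array, Rhbdd3 in 4 and Cxcl13 in 5. The count of 32 was 18 without WT 3, 54 without WT 5, 18 without Myd88_null 3, 15 without Ager_Myd88_null 1 and 10 without Ager_Myd88_null 3, and moved by less than 1.5 times without any other array. Within the S ranges 31, 32 and 31 of the 32 had the pooled sign. The exceptions were Lgals1 in S 1 to 6 and Gucy1a1 in S 13 to 20. These are plain differences of means, so they mix Ager genotype with Myd88 genotype. The 32 were called on these same arrays, which favours the same sign, so this count is a description.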

How the data were processed

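RNA of 19 mouse livers was measured on Affymetrix arrays, 1 per mouse as the labels describe it, and amplified with a 3' IVT kit per the labels' protocols. Log2 values, 1 for each probe set, are as the authors deposited them. GCRMA 2.16 is named per the submitters' processing notes, and no other step was stated in the labels or file header. No depth applies to arrays, whose number limits the precision. Of 45101 probe sets, 64 were controls, 34945 carried 1 gene symbol, 932 several and 9160 none. Each of 18193 genes was taken from its brightest single-gene probe set, and 8515 were over log2 4 on at least 4 arrays and were tested.

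The fit used limma 3.58.1 in R 4.3.3 (lmFit, eBayes; two-sided; Benjamini-Hochberg over all tested genes; called at an adjusted p under 0.05), with Myd88 and Ager genotype as terms. The 2 backgrounds and their difference came from a fit of 4 groups. Errors are SE unless SD is stated. The script was tested on simulated data. Genes were named by rule: Myd88 and Ager, the 12 largest rises and falls among called genes, called neighbours of Myd88, called list members and up to 4 others with the smallest p, and the 6 smallest p of the difference. The 10 smaller rises, Slc25a38, Fyco1, Oxsr1, Acaa1a, and list members beyond the rule were named after their values were seen. Gene order and promoters came from RefSeq tables on GRCm38.p6. The 33 gene lists (816 of 897 entries on the array) and the comparison were chosen with earlier results of these data known. Alternatives changed the filter, scaling, probe set rule, blocks, model and samples.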

Additional observations from a re-analysis of the deposited data

Results flagged for a closer look

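Over 48 genes and their 192 groups of arrays, 7 single arrays lay far from the rest of their group. Chance gives such a gap in about 1 in 20 groups, so 7 in 192 is not more than that rate. Cyth3 read 4.23 on Ager_null 4, where the other arrays of the group read 4.75 to 4.97. Parp3 read 7.41 on Ager_null 6, against 8.08 to 8.43, and Supt3 read 3.61 on Ager_null 3, against 3.91 to 4.06. Tmem51 read 5.66 on Myd88_null 4, against 5.35 to 5.40, and 5.69 on Ager_null 5, against 4.6 to 5.0. Ccl2 read 5.76 on Ager_null 2, against 3.98 to 4.60, and Gucy1a1 read 5.61 on WT 3, against 5.41 to 5.44.

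For 6 genes the effect of Myd88 loss differed between backgrounds with the smallest p in limma (adjusted p = 0.0255 for each). The effect without Ager minus that with Ager intact was -2.05 ± 0.33 (log2, SE) for Atxn2, -2.83 ± 0.48 for Pim1, -2.07 ± 0.35 for Zfyve1, 1.83 ± 0.31 for Ccdc122, 1.95 ± 0.34 for Setd4 and 1.24 ± 0.22 for Nip7. Myd88 loss without Ager gave -0.87 for Atxn2, -2.08 for Pim1, -1.27 for Zfyve1, 1.32 for Ccdc122, 0.84 for Setd4 and 0.45 for Nip7. With Ager intact it gave 1.17 for Atxn2, 0.75 for Pim1, 0.81 for Zfyve1, -0.51 for Ccdc122, -1.12 for Setd4 and -0.79 for Nip7. With the S range as a block none of these differences was called, and all Ager_null arrays but no Ager_Myd88_null array lie in S 13 to 20, so that within Ager-null livers S range and Myd88 genotype cannot be told apart.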

How the results depend on the processing

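The pooled count of 32 called genes moved by over 1.5 times under 7 alternatives. It was 7 with a filter of over log2 6 on at least 8 arrays, 16 after quantile normalization, 20 after centring on array medians, 286 with the S range as a fixed block, 21 without the Ager covariate, 140 with array weights and 7 without the arrays of S 13 to 20. The fit without the arrays of S 13 to 20 holds no Ager_null array, so its Myd88 term compares Myd88_null with WT alone. Without 1 array the pooled count ran from 10 to 54. The neighbourhood count of 6 was 3 with the stricter filter and 5 to 6 without 1 array. For Myd88_null against WT, 34 genes were called, 8 with the stricter filter, 11 after quantile normalization, 12 after centring, 86 with the S block and 10 to 987 without 1 array. For Ager_Myd88_null against Ager_null, 208 were called, 91 without a filter, 120 with the S block, 92 with it as a random block, 138 with the replicate block and 18 to 368 without 1 array, and no S range holds both groups. The difference between backgrounds, 205 genes, gave 76 without a filter, 0 with the S block, 37 with the replicate block and 0 to 1739 without 1 array. The causes were not tested. Replicate numbers do not pair the samples. Deviations of same-numbered arrays had a median correlation of 0.05 over 25 pairs, against 0.0047 over 109 others, and with the replicate block 28 genes were called in the pooled comparison, 16 of them among the 32. No called value changed sign under any alternative run. Genes near log2 4 have little signal over background, and their changes are bounded by it.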

Other observations

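Probe sets without a gene symbol were tested on their own in the same limma fit. Of 696 that passed the filter on low values, 4 were called, all higher without Myd88, which is 0.575%, and 106 had an unadjusted p under 0.05. Just outside the threshold of the gene test lay 90 genes with adjusted p-values of 0.05 to 0.1, 74 higher and 16 lower. The first of these were Mphosph6 (0.43 ± 0.09, adjusted p = 0.0506), the lens crystallin gene Crygn (0.87 ± 0.19, adjusted p = 0.0525), the G protein gene Gnai2 (0.34 ± 0.08, adjusted p = 0.0542), Ccl2, the globin family gene Cygb (0.82 ± 0.19, adjusted p = 0.0608) and Pxylp1 (0.71 ± 0.16, adjusted p = 0.0608). By chromosome, 7 of 481 tested genes were called on chromosome 9 (1.46%), 4 of 537 on chromosome 4 (0.745%) and 5 of 690 on chromosome 11 (0.725%).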
